A study of Mus musculus with 3 samples.

Results

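The 9 immediate early genes Fos, Fosb, Jun, Junb, Egr1, Ier2, Ier3, Dusp1 and Atf3 were followed in single mouse embryonic stem cells, pluripotent cells derived from the blastocyst. They were matched by gene symbol among the 29267 mouse gene identifiers of the count tables, each to 1 identifier. The cells came in 3 types on each of 3 plates: cells labelled Mll1-/- (deleted), cells in which MLL1 was inhibited (inhibited) and Mll1fl/fl control cells (control). The labels give all of them the genotype Mll1fl/fl with Cre-ER TM, a tamoxifen-inducible Cre recombinase, on the C57BL/6J background; they name neither the inhibitor, its dose and time, nor the deleted exons, the promoter driving Cre or a vehicle. MLL1, the product of Kmt2a, is a histone H3 lysine 4 methyltransferase, and the comparisons ask how early gene transcripts stand when it is deleted or inhibited.

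Immediate early genes are transcribed within minutes of a growth factor, stress or handling signal without new protein synthesis. MAP kinases pass the signal to transcription factors already present in the cell, such as SRF with its ETS partners and CREB. Most early genes encode transcription factors, among them the FOS and JUN subunits that pair to form AP-1, and others encode inhibitors that end the signal. Their transcripts are short-lived, and cell dissociation is known to induce them in many tissues.

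Levels are counts of unique molecular identifiers (UMIs), each tagging 1 captured molecule, scaled by the size of the library (CPM). Kept wells numbered 1310 deleted, 1590 inhibited and 1513 control, with a median of 34721, 32890 and 39644 UMIs per well. Summed per plate and type they gave 9 libraries of 25899292 to 43744367 UMIs in genes. The labels do not state separate cultures per plate, and p-values therefore reflect plate-to-plate spread only, possibly a technical one. On plates 1 and 2 the control and inhibited cells came from 3 source wells each and the deleted cells from 2, dispensed last; on plate 3 the inhibited and deleted cells filled 3 source wells each and the control cells were dispensed last from 2. The types were taken as deposited, and values without plate 3 are given where they differ in direction. Stem cell markers summed to 5262 to 6779 CPM in deleted, 4656 to 5351 CPM in inhibited and 6217 to 6649 CPM in control libraries, with all 10 detected in each type. Trophectoderm markers, mostly the keratin genes Krt8 and Krt18, summed to 975 to 1626 CPM in deleted libraries. They summed to 536 to 847 CPM in inhibited and 745 to 902 CPM in control libraries. Fibroblast and feeder markers, mostly Acta2, summed to 10.7 to 18.2 CPM in deleted libraries. Their sums were 1.89 to 12.5 CPM in inhibited and 2.97 to 7.55 CPM in control libraries. The part of these marker differences in the early gene results was not tested. In summed libraries, fewer cells with a transcript and less transcript per cell cannot be told apart; the shares of wells further on address single wells. The 15 wells without cells held 2719 UMIs in all, among them 1 of Ier2, 1 of Dusp1 and 0 of the other members, which is too few to set a background level.

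The FOS subunits of AP-1 had more transcript in deleted cells than in control cells on every plate. Fos (ENSMUSG00000021250; GRCm38 chromosome 12, 85473890 to 85477273, plus strand) stood at 67.1, 88.8 and 65.9 CPM in deleted cells on plates 1, 2 and 3, at 57.8, 57.0 and 61.4 CPM in inhibited cells and at 54.5, 47.3 and 37.0 CPM in control cells. All deleted libraries lay above all inhibited ones, and these above all control ones. How many of all genes tested separate in this way was not counted. Nothing further is therefore read from such separations, here or for the genes below, in levels or in shares of wells. Fosb (ENSMUSG00000003545; chromosome 7, 19302696 to 19310051, minus strand), which encodes a second FOS partner of JUN, stood at 11.8, 18.6 and 14.6 CPM in deleted, 11.4, 12.5 and 13.5 CPM in inhibited and 11.5, 6.70 and 5.52 CPM in control cells. On plate 1 the 3 types were nearly level in Fosb, and the distance came from plates 2 and 3. The fitted log2 difference between deleted and control cells was 0.68 ± 0.15 (SE) for Fos, a 1.60-fold higher level, and 0.94 ± 0.30 for Fosb, 1.92-fold. Neither passed edgeR's quasi-likelihood test with Benjamini-Hochberg (BH) adjustment over all 17119 genes tested (adjusted p = 0.193 for Fos and 0.321 for Fosb). Between inhibited and control cells the differences were 0.36 ± 0.15 (adjusted p = 0.509) and 0.68 ± 0.30 (adjusted p = 0.538), and between inhibited and deleted cells -0.32 ± 0.15 (adjusted p = 0.376) and -0.26 ± 0.29 (adjusted p = 0.756).

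**Figure D1:**
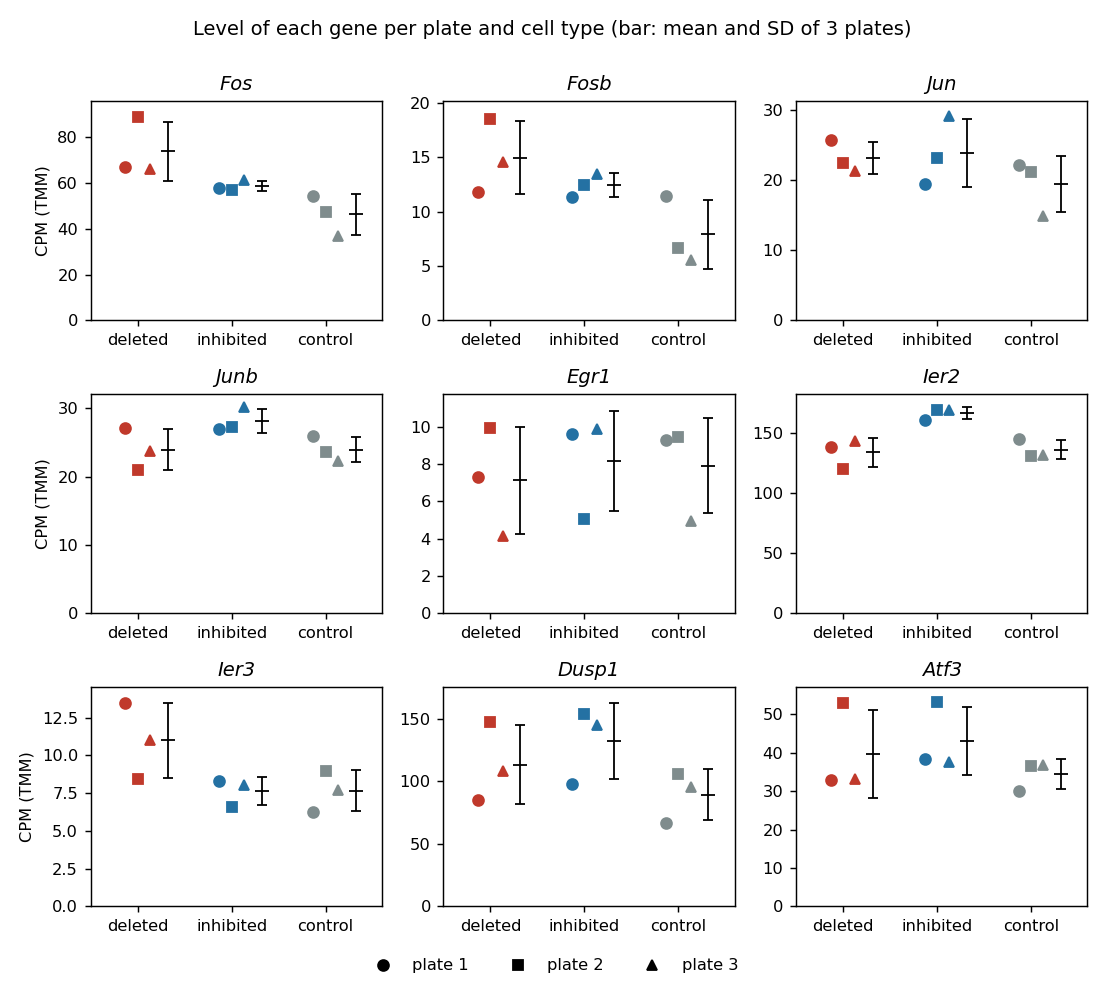
Level of each gene in CPM after TMM scaling (vertical axes, linear from 0) in deleted, inhibited and control cells; symbols are the 3 plates and the bar beside them the mean and SD. Fos has means of 73.9, 58.7 and 46.2 CPM in deleted, inhibited and control cells. Egr1 spans 4.17 to 9.91 CPM in deleted and 4.96 to 9.47 CPM in control cells.

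Source wells and single wells show how much of the Fos difference rested on few cells. On plate 2 the deleted source wells held 86.8 and 92.5 CPM of Fos before scaling, against 40.8 to 50.6 CPM in the 3 control source wells. On plate 3 the deleted source wells ranged from 35.3 to 118.5 CPM, across the control range of 31.5 to 44.1 CPM, and on plate 1 the ranges also overlapped (57.5 to 77.8 against 46.1 to 74.4 CPM). A single deleted well of 609743 UMIs on plate 3 held 545 of that library's 2531 Fos UMIs, or 21.5%. For Fosb the richest well held 10.8, 22.1 and 21.2% of the UMIs in the deleted libraries of plates 1, 2 and 3, 17.6, 11.8 and 8.12% in the inhibited and 11.2, 6.25 and 8.84% in the control libraries. The Fosb difference was 1.44 without plate 1, 0.66 without plate 2 and 0.74 without plate 3. Without the deepest 5% of wells of each library the difference between deleted and control cells was 0.56 for Fos and 0.69 for Fosb (edgeR adjusted p = 0.302 and 0.521).

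The JUN subunits differed little. Jun (ENSMUSG00000052684; chromosome 4, 95049034 to 95052222, minus strand) averaged 23.2 ± 2.33 CPM in deleted, 23.9 ± 4.91 CPM in inhibited and 19.5 ± 4.00 CPM in control cells (SD, n = 3 plates), and the groups overlapped. Its difference was 0.25 ± 0.21 for deleted against control and 0.31 ± 0.21 for inhibited against control, the second becoming -0.03 without plate 3. For inhibited against deleted it was 0.05 ± 0.21, and -0.18 without plate 3. Junb (ENSMUSG00000052837; chromosome 8, 84974484 to 84978718, minus strand) averaged 23.9 ± 3.05, 28.1 ± 1.72 and 23.9 ± 1.88 CPM in deleted, inhibited and control cells. Inhibited cells had 27.0, 27.3 and 30.1 CPM of Junb on plates 1, 2 and 3, each above all 3 control libraries (22.2 to 26.0 CPM), a difference of 0.23 ± 0.15 (edgeR adjusted p = 0.690). Jun overlaps the antisense gene Junos and Junb overlaps Prdx2 on the other strand; no source used here gives the strand setting of the counting, so reads of such pairs may not be told apart.

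Atf3 and Egr1 encode transcription factors outside the FOS and JUN families, and neither passed the test. Atf3 (ENSMUSG00000026628; chromosome 1, 191170296 to 191218039, minus strand), a CREB-family factor induced by stress, stood at 33.0, 53.0 and 33.3 CPM in deleted, 38.4, 53.2 and 37.6 CPM in inhibited and 30.0, 36.5 and 36.9 CPM in control cells. The 2 high deleted and inhibited values fell on plate 2. The inhibited libraries all lay above the control ones (0.30 ± 0.14, edgeR adjusted p = 0.581), and the deleted ones did not (0.17 ± 0.14, adjusted p = 0.753). Egr1 (ENSMUSG00000038418; chromosome 18, 34859823 to 34864984, plus strand), a zinc finger factor that is a classic readout of ERK signalling, stood at 7.31, 9.91 and 4.17 CPM in deleted, 9.60, 5.06 and 9.85 CPM in inhibited and 9.29, 9.47 and 4.96 CPM in control cells. No type was highest on all 3 plates, and the difference was -0.15 ± 0.37 for deleted and 0.13 ± 0.38 for inhibited against control. Without plate 3 the inhibited cells stood at -0.37 against control, and at -0.26 against deleted cells, where the difference over all plates was 0.29 ± 0.38. In the deleted library of plate 2, 1 well held 37.0% of the Egr1 UMIs.

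Dusp1 and Ier2 had the smallest p of the members for inhibited against control cells. Dusp1 (ENSMUSG00000024190; chromosome 17, 26505590 to 26562128, minus strand) encodes a phosphatase that inactivates MAP kinases and so limits the response that induces it. It stood at 84.7, 147 and 108 CPM in deleted, 97.6, 153 and 145 CPM in inhibited and 66.8, 106 and 95.4 CPM in control cells. Plate 1 was low in all 3 types, so the ranges of the types overlap, but within each plate inhibited cells were highest and control cells lowest. The within-plate log2 ratio of inhibited to control cells was 0.55, 0.54 and 0.61 on plates 1, 2 and 3. The fitted difference was 0.56 ± 0.09, or 1.48-fold, in edgeR's quasi-likelihood test (adjusted p = 0.217). For deleted against control it was 0.33 ± 0.09 (adjusted p = 0.253), and for inhibited against deleted 0.23 ± 0.09 (adjusted p = 0.297). The Dusp1 locus overlaps 4 other annotated genes, among them Ergic1 on the other strand, so part of its count may belong to a neighbour. Its UMIs were spread widely, with no well holding over 4.61% of a library's Dusp1 UMIs.

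Ier2 (ENSMUSG00000053560; chromosome 8, 84661331 to 84662852, minus strand), which encodes a nuclear protein of the early response, stood at 138, 120 and 143 CPM in deleted, 161, 169 and 169 CPM in inhibited and 145, 131 and 132 CPM in control cells. Every inhibited library lay above every deleted and every control one, and deleted and control libraries overlapped. The difference was 0.29 ± 0.09 for inhibited against control (edgeR adjusted p = 0.365), 0.32 ± 0.09 for inhibited against deleted (adjusted p = 0.151) and -0.03 ± 0.09 for deleted against control (adjusted p = 0.959). Ier3 (ENSMUSG00000003541; chromosome 17, 35821684 to 35822923, plus strand), which encodes a regulator of apoptosis and ERK signalling, stood at 13.5, 8.47 and 11.05 CPM in deleted, 8.30, 6.57 and 8.02 CPM in inhibited and 6.27, 8.998 and 7.74 CPM in control cells. Deleted cells were higher than inhibited cells in Ier3 on all 3 plates (-0.52 ± 0.26 for inhibited against deleted, adjusted p = 0.412). In the deleted library of plate 3, 1 well of 609743 UMIs held 160 of 424 Ier3 UMIs, or 37.7%. With every well thinned to the same number of UMIs the Ier3 difference turned to 0.16 for inhibited against deleted, and for deleted against control it was 0.50 ± 0.26 without thinning and -0.12 with it.

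Read together, 0 of the 9 genes passed the threshold of 0.05 on the adjusted p in any of the 3 comparisons of edgeR's quasi-likelihood test. Over all genes 0.035% passed for deleted against control, 0.00584% for inhibited against control and 0.31% for inhibited against deleted. At an unadjusted p under 0.05, 3 members were higher and 0 lower in deleted than in control cells (Fos, Fosb and Dusp1), where 5.11% of all genes were higher. For inhibited against control 4 were higher and 0 lower (Fos, Fosb, Ier2 and Dusp1), where 4.77% of all genes were. For inhibited against deleted 2 were higher and 0 lower (Ier2 and Dusp1), where 6.98% were. The median log2 difference of the members was 0.25 for deleted against control, with 6 of 9 above 0, and 0.30 for inhibited against control, with 8 of 9 above 0. It was 0.13 for inhibited against deleted, with 6 of 9 above 0, and the medians of all genes tested were 8.9e-05, -0.00069 and -0.0032. Deleted and inhibited cells were set against the same control libraries, so these counts are not independent of each other.

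**Figure D2:**
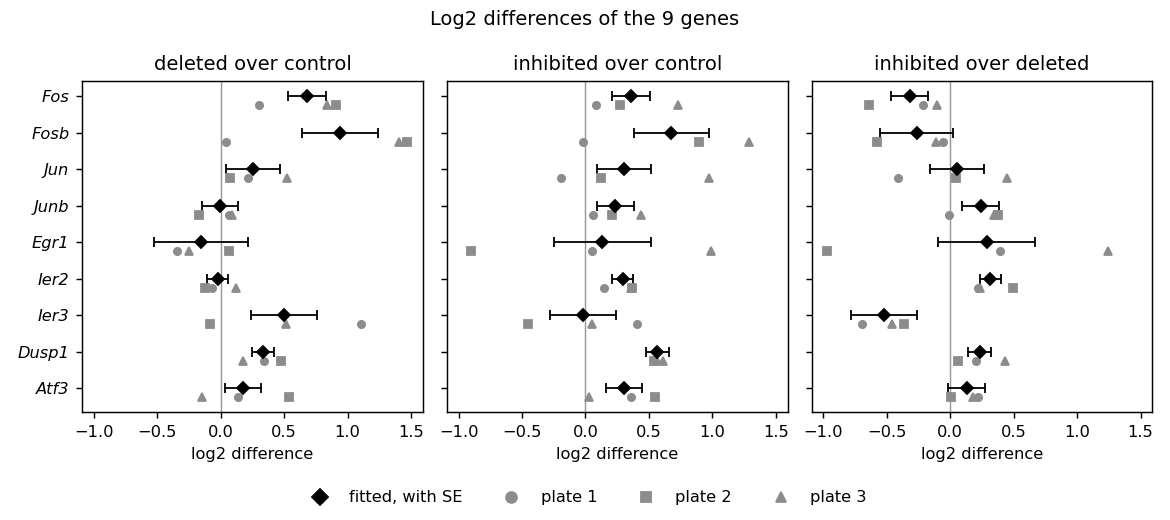
Log2 difference (horizontal axes) of the 9 genes in the 3 comparisons; diamonds with bars are fitted values with their SE and grey symbols the ratio within each plate. Dusp1 ratios of inhibited to control cells lie at 0.54 to 0.61 on all plates, while those of Egr1 run from -0.90 to 0.99.

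Some members passed under another processing. With DESeq2, which called 3.01% of genes with an adjusted p for deleted against control, Fos (adjusted p = 0.00102), Dusp1 (0.0331) and Fosb (0.0444) passed there. DESeq2 also passed Dusp1 (8.9e-06) and Ier2 (0.0345) for inhibited against control, where it called 6.15%, and Ier2 (0.0186) for inhibited against deleted, where it called 4.78%. With no filter on low counts, edgeR passed Fos for deleted against control (0.0024, with 0.613% of genes called) and Dusp1 for inhibited against control (0.00112, with 0.37% called). With every well thinned to 5869 UMIs, edgeR passed Fosb (difference 1.27, adjusted p = 0.0158) and Fos (0.57, adjusted p = 0.0435) for deleted against control, where it called 0.829% of genes. In both other random draws of the same thinning, added after the data were seen, neither passed (adjusted p 0.159 to 0.271), and Dusp1 passed for inhibited against control (0.0377 and 0.0103, with 0.701 and 0.774% of genes called). With the mean of per-well CPM, limma passed Fosb for deleted against control (0.048, with 0.448% called). Every one of these calls was a higher level in deleted or inhibited cells than in control cells, or in inhibited than in deleted cells.

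Promoter bases are shown for Fos, Fosb and Dusp1, the members with the smallest p for deleted against control, because early genes are known to be induced through short elements there. The 250 bases before the start were read from a RefSeq promoter table (GRCm38.p6) for 7 of the 9 members, all but Egr1 and Ier2. The start meant here is the one of that table. For Fosb, Junb, Ier3, Dusp1 and Atf3 it differs from the 5′ end of the gene span given above. The windows of Dusp1 and Atf3 lie inside that span, and those of Fosb and Ier3 reach into it. Those of Fos, Fosb and Dusp1 are shown 5′ to 3′ on the strand of the gene, with motif letters in capitals.
Fos, chr12:85473640-85473889, plus strand: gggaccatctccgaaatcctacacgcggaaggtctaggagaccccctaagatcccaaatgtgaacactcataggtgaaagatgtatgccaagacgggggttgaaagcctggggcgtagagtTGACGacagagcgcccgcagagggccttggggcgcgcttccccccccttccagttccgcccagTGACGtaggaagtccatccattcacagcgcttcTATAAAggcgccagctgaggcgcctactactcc
Fosb, chr7:19310046-19310295, minus strand: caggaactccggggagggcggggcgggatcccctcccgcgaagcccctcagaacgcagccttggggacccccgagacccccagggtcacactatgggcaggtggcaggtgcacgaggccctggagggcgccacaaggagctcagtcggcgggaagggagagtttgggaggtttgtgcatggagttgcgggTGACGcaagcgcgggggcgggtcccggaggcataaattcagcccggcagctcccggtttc
Dusp1, chr17:26508473-26508722, minus strand: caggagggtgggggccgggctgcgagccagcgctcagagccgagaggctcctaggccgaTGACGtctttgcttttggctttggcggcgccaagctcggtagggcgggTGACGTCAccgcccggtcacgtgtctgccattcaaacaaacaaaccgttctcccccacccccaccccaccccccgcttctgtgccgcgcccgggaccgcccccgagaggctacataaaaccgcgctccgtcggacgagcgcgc
Capitals mark the cyclic AMP response element TGACGTCA, its shorter core TGACG, which is contained in it, and the TATA box letters TATAAA, each searched on both strands. Dusp1 held the full element 136 to 143 bases before its start, a motif found in 1.55% of all 32851 promoters of the table. The shorter core was in 5 of the 7 member promoters (Fos, Fosb, Junb, Dusp1 and Atf3) and in 17.8% of all promoters, and TATAAA in that of Fos and in 12.4% of all. The AP-1 site TGANTCA (6.75% of all promoters) and the CArG box of SRF (1.47%) were in 0 of these 7 windows. These are matches of letters within the window, not measured binding, and bases farther from the start were not searched.

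At equal depth, Fosb was detected in more wells of deleted than of control cells on every plate. For this, each well was thinned to 5869 UMIs, which left 1147 deleted, 1414 inhibited and 1410 control wells and left out 442 shallower ones. Fosb then had a UMI in 7.75, 7.83 and 6.35% of deleted wells on plates 1, 2 and 3, in 6.33, 5.18 and 5.45% of inhibited wells and in 4.15, 3.85 and 3.21% of control wells. The 3 types did not overlap in this 1 random draw, but deleted and inhibited shares nearly met. The lowest deleted share was 28 of 441 wells on plate 3 and the highest inhibited share 31 of 490 wells on plate 1. The mean difference was 3.58 percentage points for deleted minus control and 1.92 for inhibited minus control, each positive on 3 of 3 plates, where the smallest p of the exact two-sided permutation of signs is 0.25 and was reached. Fos had a UMI in 20.9, 24.1 and 19.95% of deleted, 17.1, 19.5 and 19.2% of inhibited and 19.2, 17.7 and 15.1% of control wells. All deleted values of Fos lay above all control ones, and inhibited and control values overlapped. Without thinning, Fos was seen in 47.1% of deleted, 42.1% of inhibited and 45.7% of control wells on plate 1, in 48.3, 37.3 and 37.8% on plate 2 and in 39.3, 43.4 and 41.4% on plate 3. Deleted wells were highest on plates 1 and 2 and lowest on plate 3 in these shares, which mix wells of different depth.

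**Figure D3:**
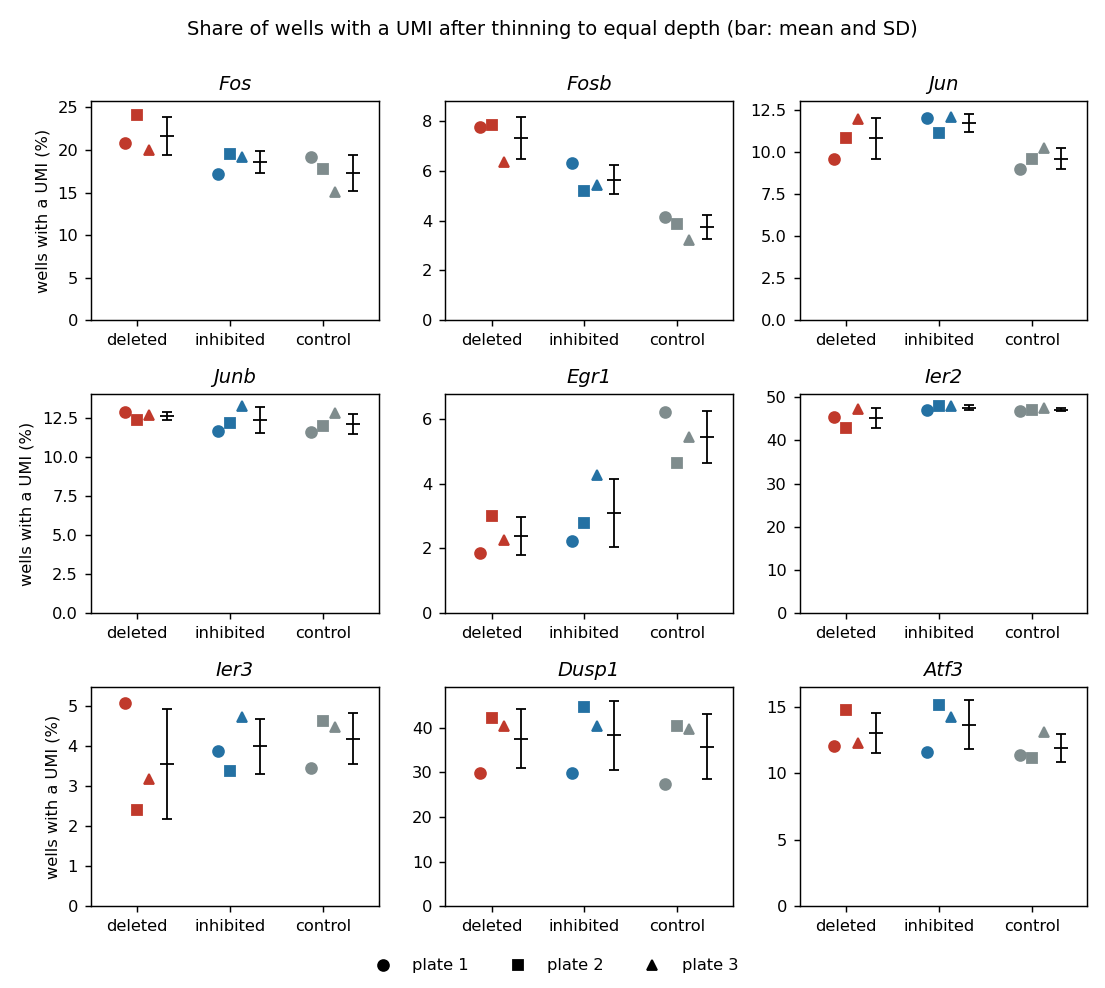
Share of wells with at least 1 UMI of each gene after thinning to 5869 UMIs (vertical axes in percent, linear from 0), by type; symbols are plates and bars the mean and SD. Fosb shares are 6.35 to 7.83% in deleted, 5.18 to 6.33% in inhibited and 3.21 to 4.15% in control wells.

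For deleted against control wells, 4 members (Fos, Fosb, Jun and Dusp1) had a higher share on all 3 plates, where 10.2% of all genes tested did, and 2 (Egr1 and Ier2) a lower one, where 17.8% did. For inhibited against control wells, 6 members (Fosb, Jun, Junb, Ier2, Dusp1 and Atf3) had a higher share on all plates, against 7.2% of all genes, and Egr1 a lower one, against 23.3%. For inhibited against deleted wells Jun and Ier2 were higher on all plates (10.5% of all genes) and Fos and Fosb lower (17.6%). All genes tested had means of 0.00025 to 115 UMIs per well at equal depth. The members had 0.051 to 0.897, so these percentages are not a like comparison. The members named are those of 1 random draw. The Ier2 share in that draw was 45.1 ± 2.22% in deleted, 47.5 ± 0.52% in inhibited and 47.1 ± 0.32% in control wells (SD, n = 3 plates), and that of Dusp1 37.5 ± 6.60, 38.2 ± 7.62 and 35.8 ± 7.35%. The Egr1 share was 2.38% in deleted, 3.10% in inhibited and 5.43% in control wells, but its CPM did not follow that order, so no order is read from it. The share expected over all possible draws, added after the data were seen, gave 6.27% in deleted, 5.25% in inhibited and 3.79% in control wells for Fosb and 20.3, 18.6 and 17.4% for Fos. Over all draws Fos, Fosb, Jun and Dusp1 kept a higher share in deleted than in control wells on all 3 plates and Egr1 a lower one, but Ier2 was above control on 1 plate. All genes were counted in the 1 random draw only, so no percentage of all genes stands beside the counts over all draws. For inhibited against control wells, Fosb, Jun, Ier2 and Dusp1 were higher on all 3 plates, Junb, Atf3 and Egr1 on 1 each, and Ier3 on 0. For inhibited against deleted wells, Junb, Ier2 and Dusp1 were higher on all 3 plates, Jun on 2, Fos on 1 and Fosb on 0. The Ier2 share over all draws was 45.1% in deleted, 49.2% in inhibited and 46.5% in control wells, 2.35 to 3.05 percentage points higher in inhibited than in control wells on the plates. For Egr1 it was 2.98, 3.42 and 4.02%, and for Dusp1 35.95, 39.5 and 34.2%, with Dusp1 higher in inhibited than in control wells by 3.74 to 6.34 percentage points on the plates.

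At equal depth, a member that was detected was mostly at 1 or a few UMIs. After thinning to 5869 UMIs, positive wells held 1.43 to 2.11 Fos UMIs on average over the 9 libraries, 1.75 to 2.17 of Ier2 and 1.53 to 2.25 of Dusp1, and the highest thinned counts were 14 of Fos, 15 of Ier2 and 17 of Dusp1. Before thinning, the richest wells held 545 UMIs of Fos, 421 of Ier2 and 210 of Dusp1. The variance over the mean of thinned UMIs per well, which is 1 for independent random sampling of equal cells, was 2.77 for Fos, 2.79 for Atf3, 2.42 for Jun, 2.26 for Fosb, 2.22 for Egr1, 2.18 for Dusp1, 2.15 for Ier2, 1.97 for Ier3 and 1.57 for Junb, averaged over the libraries. Their median of 2.22 stood beside 2.07 for 12 housekeeping genes and 1.93 for 38 other early response genes. For all genes tested the median was 2.00, computed over all wells pooled, which also holds differences between libraries. All genes tested had means of 0.00025 to 115 UMIs and the members 0.051 to 0.897, so that median is not a like comparison. The members' range of 1.57 to 2.79 spans the medians of these other lists, and no well held all of them.

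Of the 3971 wells, 719 had no member, 1416 had 1, 1159 had 2, 479 had 3, 155 had 4, 36 had 5 and 7 had 6; none had 7 or more, which allows a share of up to 0.0755% of wells. If the members were detected independently at their shares over all wells pooled, 16.4% of wells would hold 3 or more, 3.51% 4 or more and 0.46% 5 or more. Observed were 17.0, 4.99 and 1.08%, with 95% exact binomial intervals of 15.9 to 18.3, 4.33 to 5.71 and 0.785 to 1.46%, which cover counting error only. Wells with no member were 18.1% against 16.3% under independence. The share of wells with 3 or more members was 15.0, 19.6 and 17.0% in deleted cells on plates 1, 2 and 3, 14.7, 19.3 and 21.3% in inhibited cells and 14.7, 17.0 and 15.7% in control cells. The types overlapped. The mean difference was 1.41 ± 1.17 percentage points (SD, n = 3 plates) for deleted minus control (exact two-sided sign permutation p = 0.25) and 2.67 ± 2.82 for inhibited minus control (exact p = 0.25), the smallest p that 3 plates allow. For inhibited minus deleted it was 1.26 ± 2.65 (exact p = 1) and turned to -0.27 without plate 3.

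Pairs of members shared wells slightly more often than their own shares give. Summed over the 36 pairs, both genes were seen in a well 3991 times, against 3685 from the product of their shares within each library, a ratio of 1.08. The ratio was above 1 in 9 of 9 libraries, from 1.04 to 1.12. Over 6794 other genes detected in as many wells as the members are, between 3.70 and 46.7%, the same ratio was 1.01, and the middle 50% of their pairs lay between 0.934 and 1.09. Fos and Fosb were seen together in 70 wells against 42.4 from their shares, a ratio of 1.65, above 1 in 9 of 9 libraries. A ratio that high or higher was found in 0.333% of the pairs of other genes. Fos and Fosb are the highest of 36 pairs, while the pairs of other genes were counted singly. Those pairs were also not matched to the shares of Fos and Fosb, so the percentage is not a test. Fosb and Atf3 stood at 1.65 (46 wells against 27.9), Fos and Atf3 at 1.39 (135 against 97.2), Jun and Junb at 1.38 (72 against 52.3), Junb and Dusp1 at 1.32 (237 against 180) and Dusp1 and Atf3 at 1.22 (231 against 189). Of the 36 pairs, 25 were above 1, where 53.9% of the pairs of other genes were. The median ratio of the 36 pairs was 1.075, inside the middle 50% of the pairs of other genes. Each member pair below 1 held Egr1, Ier3 or Ier2, and Fos and Ier2 shared 323 wells against 354 (ratio 0.913). Correlations over wells were weak, with a median Pearson r of 0.013 over the 36 pairs and 0.087 for Fos and Fosb, the highest, averaged over the 9 libraries. Without thinning all 36 ratios were above 1, with wells of different depth mixed.

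**Figure D4:**
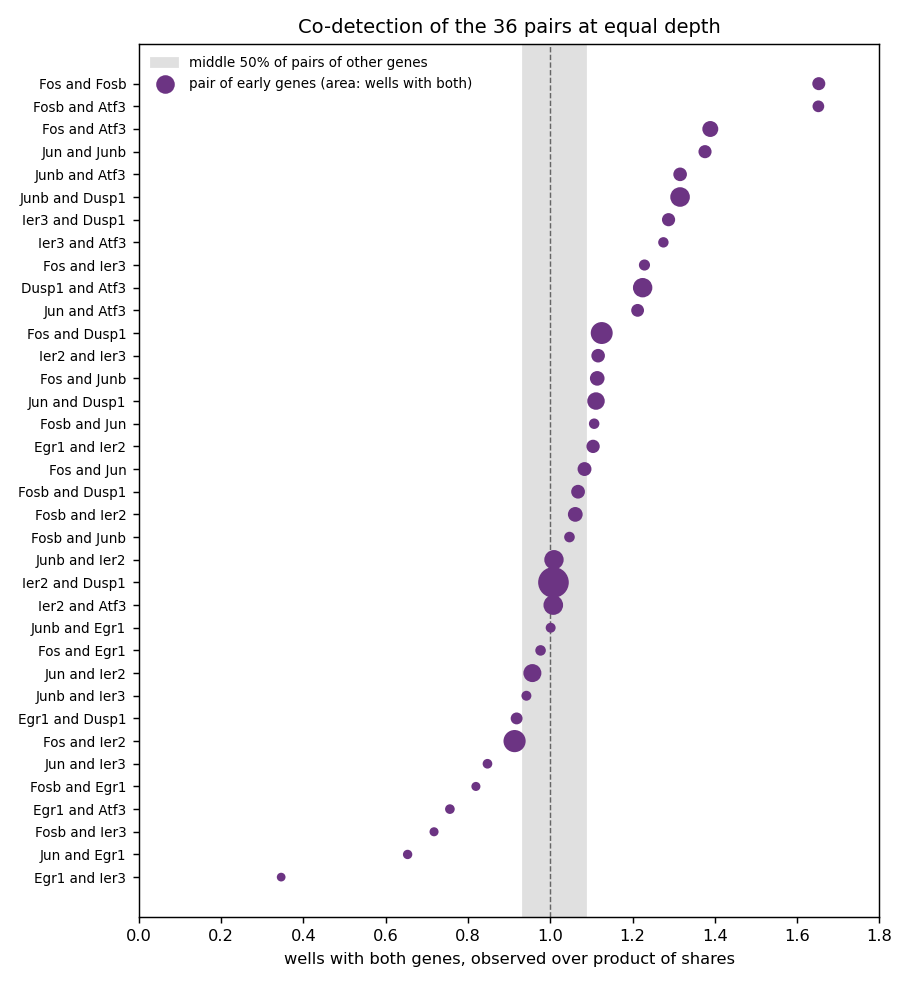
Number of wells with both genes of a pair over the number given by the product of their shares in each library (horizontal axis, linear from 0), at equal depth, for all 36 pairs; the point's area grows with the wells holding both and the grey band is the middle 50% of pairs of other genes. Fos and Fosb (1.65) and Fosb and Atf3 (1.65) stand highest, and Egr1 and Ier3 (0.346, from 2 wells) lowest.

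The genes whose UMIs were most like those of the summed members over wells were led by the keratin gene Krt18. Among 7570 other genes with at least 10 CPM, the 10 highest mean Pearson r over the 9 libraries, on log2(thinned UMIs + 1), belonged to Krt18 (0.140), Ahnak (0.129), Cxcl16 (0.129), Cd81 (0.127), Crip2 (0.121), Anxa2 (0.120), Lgals3 (0.119), Clic1 (0.114), Krt8 (0.113) and Klf6 (0.112). Each r was above 0 in 9 of 9 libraries, the median over all genes was 0.0023 and the 99th percentile 0.066. They are weak correlations in sparse counts, computed within each library at equal depth. Krt18 and Krt8 encode the keratins of simple epithelia, ANXA2 binds phospholipids, galectin-3 (Lgals3) is a lectin, and KLF6 is itself an early response factor. Krt18 was also the gene most like Fos (0.143), Fosb (0.096) and Jun (0.0997) taken singly. Cd81 was closest to Dusp1 (0.152), Ahnak to Atf3 (0.115) and Mkrn1 to Ier2 (0.1297).

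Several of these genes also differed between the types. Anxa2 averaged 245 ± 42.0 CPM in deleted cells against 142 ± 15.5 CPM in control cells (0.78 ± 0.07, edgeR adjusted p = 0.00665), and Lgals3 276 ± 28.3 and 172 ± 7.28 CPM (0.68 ± 0.07, adjusted p = 0.0141). Krt18 averaged 1027 ± 287 CPM in deleted cells against 592 ± 61.1 CPM in control cells (0.75 ± 0.11, adjusted p = 0.0563). Against deleted cells, inhibited cells were lower in Anxa2 (-0.80 ± 0.07, adjusted p = 0.00472), Lgals3 (-0.84 ± 0.07, adjusted p = 0.00472), Krt18 (-0.85 ± 0.11, adjusted p = 0.0185) and Krt8 (-0.89 ± 0.14, adjusted p = 0.0318). The part of these genes in the Fos and Fosb differences was not tested.

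Wells with 3 or more members held more keratin UMIs and a lower sum of stem cell marker UMIs than wells with none, in 9 of 9 libraries. Krt8 and Krt18, chosen for this after their values were seen, had together 9.17 ± 2.71 UMIs per well with 3 or more members and 3.05 ± 1.63 in wells with none (SD, n = 9 libraries), higher in 9 of 9 libraries. The 10 stem cell markers had 28.1 ± 5.57 UMIs per well with 3 or more members and 35.8 ± 5.36 in wells with none, lower in 9 of 9 libraries. Most of that sum came from Dppa5a, which marks naive pluripotency, at 23.7 ± 5.32 and 30.3 ± 5.10 UMIs, and the co-receptor gene Tdgf1 was also lower in 9 of 9 libraries. Pou5f1 (0.335 ± 0.075 and 0.390 ± 0.103 UMIs) was lower in 6 of 9 and Sox2 in 5 of 9. Utf1 went the other way, with 0.296 and 0.254 UMIs, higher in 6 of 9 libraries. Of the other trophectoderm markers, Gata3 had 0.099 and 0.055 UMIs, higher in 7 of 9 libraries. Cdx2 had 0.032 and 0.025 UMIs, higher in 3 of 9 and lower in 5. Eomes had 0.030 and 0.037 UMIs, higher in 4 and lower in 4. Tfap2c had 0.093 and 0.085 UMIs, higher in 4 and lower in 5, and Elf5 was at 0. The median mitochondrial share was 3.38 ± 0.36% in wells with 3 or more members and 3.75 ± 0.53% in wells with none, lower in 9 of 9 libraries. The wells' depth before thinning was higher in 7 of 9 libraries, with a mean median of 52419 and 41516 UMIs. These wells were sorted by the members themselves, so the values are given as a description without a test.

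**Figure D5:**
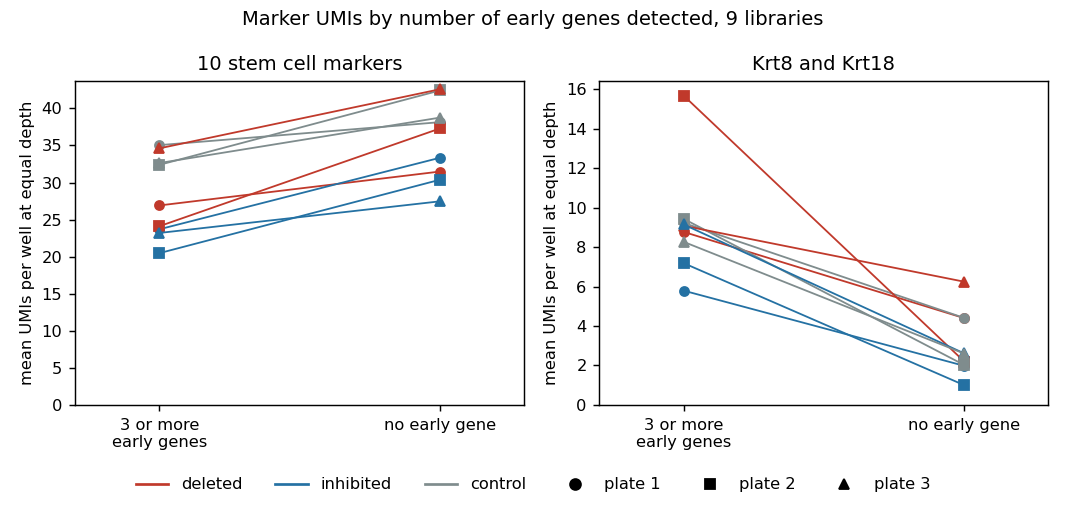
Mean UMIs per well at equal depth (vertical axes, linear from 0) of the 10 stem cell markers, mostly Dppa5a, and of Krt8 and Krt18, in wells with at least 3 early genes and wells with none; each line is 1 of 9 libraries, coloured by type with a symbol per plate. The marker sum is lower and the keratin sum higher in wells with 3 or more early genes in 9 of 9 libraries.

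Other genes of the early response were described beside the members. Of 41 listed genes, 38 could be tested, and 0 rose or fell in any comparison of edgeR's test. For deleted against control 29 of 38 were above 0 with a median of 0.15, for inhibited against control 19 with a median of 0.01, and for inhibited against deleted 15 with a median of -0.07. The smallest p for deleted against control belonged to Fosl2, another FOS family gene, with 13.7 ± 5.64 CPM in deleted cells against 6.54 ± 2.87 CPM in control cells (1.10 ± 0.29, adjusted p = 0.240), to the Notch target Hes1 (0.30 ± 0.11, adjusted p = 0.394) and to the stress gene Gadd45b (0.35 ± 0.15, adjusted p = 0.446). For inhibited against control it belonged to Gadd45g at 92.2 ± 10.1 and 69.5 ± 3.25 CPM (0.40 ± 0.10, adjusted p = 0.355), to Hes1 (0.33 ± 0.11, adjusted p = 0.421) and to the NF-kB inhibitor gene Nfkbia (0.28 ± 0.11, adjusted p = 0.484). Between inhibited and deleted cells Gadd45g stood at 0.52 ± 0.10 (adjusted p = 0.0692), Fosl2 at -1.13 ± 0.29 (adjusted p = 0.136) and Myc, the proto-oncogene, at 0.46 ± 0.19 (adjusted p = 0.323).

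The genes that carry the signal to the early genes did not pass either. Of 23 kinases and transcription factors upstream, 21 were tested, with medians of 0.09 for deleted and 0.03 for inhibited against control and -0.13 for inhibited against deleted. The ETS factor gene Elk3 stood at 4.85 ± 0.88 CPM in deleted cells against 2.98 ± 0.90 CPM in control cells (0.74 ± 0.33, edgeR adjusted p = 0.476) and Map2k1, which encodes the kinase MEK1, at 0.26 ± 0.14 (adjusted p = 0.586). For inhibited against control the RAF kinase gene Braf was at -0.53 ± 0.24 (adjusted p = 0.553), the ribosomal S6 kinase gene Rps6ka1 at -0.25 ± 0.12 (adjusted p = 0.567) and Elk3 at 0.62 ± 0.33 (adjusted p = 0.628). For inhibited against deleted, the CREB coactivator gene Crebbp was at 0.34 ± 0.14 (adjusted p = 0.342) and the ribosomal S6 kinase gene Rps6ka3 at -0.64 ± 0.28 (adjusted p = 0.347). Among 11 heat shock genes, which a stress of handling can also raise, 0 passed, and the medians were -0.02, 0.02 and -0.0043. Dnajb1, a cochaperone gene, stood at 91.2 ± 13.9 CPM in deleted, 87.6 ± 9.09 CPM in inhibited and 69.1 ± 13.8 CPM in control cells, higher than control on 3 of 3 plates in both (0.41 ± 0.09, adjusted p = 0.203, and 0.36 ± 0.09, adjusted p = 0.358). Hspa1b, a heat-inducible chaperone gene with a near-identical copy, stood at 10.9 ± 1.15, 9.22 ± 2.59 and 6.72 ± 1.33 CPM, and the constitutive chaperonin gene Hspe1 at 1074 ± 46.2, 1205 ± 35.8 and 1226 ± 30.6 CPM. Of 12 housekeeping genes set beside them, 0 passed; for deleted against control, the purine salvage gene Hprt was at -0.34 ± 0.08 (adjusted p = 0.197) and the elongation factor gene Eef2 at 0.33 ± 0.08 (adjusted p = 0.203).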

How the data were processed

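Single cells were dispensed into nanowell plates, and their RNA was copied to cDNA and tagged, per the labels' protocols. The authors deposited 1 table of UMI counts per plate, whole numbers per gene and well with no normalization, and the type of each well. Alignment with STAR 2.5.2b to mm10 and counting with featureCounts (Subread 1.4.6-p1) are named in the submitters' processing notes, without roles or settings; no source used here gives the strand setting. Of 4610 wells of the 3 types, 4413 were kept, with at least 1000 genes and under 20% mitochondrial UMIs. The 90 columns that are not mouse genes were left out of library sizes; spike-in RNA was 0.67% of UMIs over the kept wells. Barcodes shared between plates numbered 436 to 503 per pair of plates, so wells were identified by plate and barcode. Doublets were not called; a fit without the deepest 5% of wells is an alternative.

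Counts were summed per plate and type into 9 libraries and fitted with edgeR 4.0.16 (TMM, filterByExpr, quasi-likelihood test, plate as a block, BH over 17119 genes, threshold 0.05) in R 4.3.3. The labels put all 3 types on each plate. Deviations from the type means correlated at 0.126 to 0.21 in 9 pairs of libraries of the same plate and at -0.125 to -0.0067 in 18 pairs of different plates. Deviations of a type sum to 0 over its plates, so a positive first range itself pulls the second below 0. Plates were taken to pair the samples from this layout and the first range. Alternatives used DESeq2 1.42.0 and limma 3.58.1 on log2(mean per-well CPM + 1), other filters, equal depth (5869 UMIs per well) and each plate left out. Shares of wells were compared within plates by an exact two-sided permutation of signs. The edgeR step was tested on simulated data. Gene coordinates are from GENCODE M21 (GRCm38), matched by identifier. The genes named are all 9 members, up to 3 of each list with the smallest p per comparison, and the 10 genes most like the members. Some genes that this rule names are not reported here. The members and lists were chosen with earlier results of these data known.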

Additional observations from a re-analysis of the deposited data

How the results depend on the processing

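Of 346 values of the 9 genes in the 3 comparisons under 13 other settings, 302 kept their direction and their side of the threshold, 13 passed the threshold and 31 changed direction; 5 more had no adjusted p from DESeq2. The genes passing were 6, 1 and 53 for deleted against control, inhibited against control and inhibited against deleted. They were 0, 0 and 3 with no replicate block, which changed no call of a member; 179, 108 and 383 with no filter on low counts; 325, 277 and 723 with DESeq2; 90, 106 and 191 with wells thinned to equal depth, and 61, 76 and 161 or 84, 84 and 188 in the other draws; and 61, 88 and 162 with the mean of per-well CPM. Without the deepest wells inhibited against deleted gave 31. With 1 plate left out they were 1 to 5, 0 to 0 and 0 to 73. Member calls, 0 of 27 as reported, were 2 with no filter, 6 with DESeq2, 2 with thinned wells, 1 with the mean of per-well CPM and 1 in each other draw.

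Direction changed as follows, and the cause was not tested. For deleted against control, Junb was 0.0016 with no filter, 0.067 thinned, 0.1134 in the first other draw and 0.0527 with the mean CPM; Ier2 was 0.0076 without the deepest wells and 0.0235 with the mean CPM; Ier3 was -0.1167 thinned, -0.1787 and -0.1118 in the other draws and -0.0744 with the mean CPM. With 1 plate left out, Junb ranged from -0.0514 to 0.076, Ier2 from -0.0995 to 0.0251 and Atf3 from -0.0065 to 0.3394. For inhibited against control, Egr1 was -0.5849 thinned, -0.0103 without the deepest wells and -0.1473 with the mean CPM, and Ier3 was 0.0447 thinned and 0.0144 with the mean CPM. With 1 plate left out, Jun ranged from -0.0294 to 0.5383, Egr1 from -0.373 to 0.5335 and Ier3 from -0.2179 to 0.2238. For inhibited against deleted, Junb was -0.0262 thinned; Ier3 was 0.1614 thinned, 0.0462 and 0.0812 in the other draws and 0.0888 with the mean CPM; Atf3 was -0.1166 without the deepest wells and -0.0876 in the second other draw. With 1 plate left out, Jun ranged from -0.1771 to 0.2522 and Egr1 from -0.26 to 0.8398. The share of wells with 3 or more members, deleted minus control, was -0.29 percentage points at the 5th percentile of depth. With no thinning the differences were -2.85, -4.33 and -1.48 for deleted minus control, inhibited minus control and inhibited minus deleted. The pair ratio was 1.19 with no thinning and 1.13 at 2 UMIs. The labels name no inhibitor dose or time, and low counts of Egr1, Fosb and Ier3 limit what their shares can show.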
